A study of Homo sapiens with 6 samples.

Results

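The SLC25 genes encode the mitochondrial carriers, a family of membrane proteins that move solutes across the inner mitochondrial membrane. Its members carry ADP and ATP, phosphate, keto acids, amino acids, nucleotides, coenzymes and metals between the cytosol and the matrix, and a few act on other membranes or have no settled substrate. The ADP/ATP carriers export ATP made in the matrix in exchange for cytosolic ADP. SLC25A4, SLC25A5 and SLC25A6 encode 3 such carriers, best known from muscle and heart, from dividing cells and from nearly all tissues, and SLC25A31 encodes one that is best known from the testis. The members described here were the protein-coding rows of the deposited gene table whose name is SLC25A followed by digits, 48 of the 58735 genes listed, of which 19951 were protein-coding.

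The samples were 6 RNA-seq libraries of HCT116, an established human colorectal carcinoma cell line, made from total RNA. In 3 libraries (CTR) the cells had received a control transfection, and in 3 (miR-8485) they had received 50 nM of miR-8485 mimics, short synthetic RNAs with the letters of a mature miRNA. Per the methods of the study, transfected cells were collected 48 h after transfection unless another time was given. The part on RNA-seq gave no time. CTR cells carry the label WT. The sequence and the dose of the control were not given in the sources used here, and all cells came from 1 cell line. The values were FPKM, fragments divided by the length of the gene and by the fragments of the library. Ranks and shares between genes therefore depend on the length listed for each gene. In CTR, SLC25A3, listed at 8896 bases, had 15751 to 16572 fragments. SLC25A6, listed at 2164 bases, had fewer, 11562 to 11940, but the higher FPKM. The libraries held 17473874 to 18480047 fragments. Of the epithelial markers, 5 of 6 were above 1 FPKM, with VIL1 below, and their summed level was 2598 to 2822 FPKM in CTR and 1724 to 1808 FPKM in miR-8485. Markers of other cells summed to 4.14 to 4.43 FPKM in CTR and 6.28 to 6.42 FPKM in miR-8485, nearly all of it COL1A1, with DCN at 0 in all 6 libraries. The part of these differences in the results on the carriers was not tested. In bulk RNA, fewer cells of a type and less RNA per cell cannot be told apart.

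The mimic and the stretches of member 3′ UTRs that most resemble it, or its complement, are shown first because the members differ widely in them. Capitals in the mimic mark the seed, bases 2 to 8, the part through which a miRNA mainly pairs with its targets. In the 5 genomic stretches, read on the strand of the gene in hg38 with the GENCODE release 44 annotation, capitals mark the longest run shared with the mimic. In SLC25A6 the run has the same letters as the mimic, and in the other 4 it is complementary to it.
miR-8485 mimic: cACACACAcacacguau
SLC25A6: gcctcctcCACACACACACACacaccaggg
SLC25A46: aaatctctCGTGTGTGTGTGTGtgtagtta
SLC25A44: tttgttttGTGTGTGTGTGTGtgtgtgtgt
SLC25A36: ttccaagttGTGTGTGTGTGTttattactg
SLC25A22: gtgtgcatgCGTGTGTGTGTtgtggggatc

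All 5 stretches lie in the 3′ UTR exon sequence of their genes. They are at chrX:1386564-1386593 on the minus strand for SLC25A6, chr5:110763371-110763400 on the plus strand for SLC25A46, chr1:156211050-156211079 on the plus strand for SLC25A44, chr3:140980546-140980575 on the plus strand for SLC25A36 and chr11:791185-791214 on the minus strand for SLC25A22. The shared runs are 13 bases long in SLC25A6, 14 in SLC25A46, 13 in SLC25A44, 12 in SLC25A36 and 11 in SLC25A22.

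A gene was tested where its mean over the 6 libraries was at least 1 FPKM, which left 12349 genes and 37 of the 48 members. The test was limma on log2(FPKM + 0.1), and a gene was called to have risen or fallen in miR-8485 at a Benjamini-Hochberg adjusted p under 0.05 over all tested genes. On this scale, 14 members rose, 11 fell and 12 passed the test in neither direction. Changes were common across the whole table, where 59.6% of tested genes were called, 29.1% having risen and 30.5% having fallen. Of the tested members 67.6% were called, a share close to that background. The median log2 fold change was 0.056 over the members and -0.0041 over all tested genes, with members on both sides of 0. The library medians of the members, set against the CTR mean, ran from -0.015 to 0.016 in CTR and from -0.010 to 0.055 in miR-8485. The CTR and miR-8485 libraries did not overlap for 26 of the 37 members, or 70.3%, against 66.5% of all tested genes. Log2 fold changes of the members ran from -3.50 to 0.81. By at least 0.5 on the log2 scale, 5 members rose and 6 fell, where 14.5% and 15.0% of all tested genes did. Both the 5 and the 14 risers include SLC25A35 and SLC25A41, with CTR means of 0.81 and 0.94 FPKM. These passed the filter only through their level in miR-8485.

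The scale chosen moved the split between directions. On TPM, in which all genes of a library sum to the same total, the median of all tested genes was -0.12, and 11 members rose and 13 fell. Of the members named below as having risen, SLC25A5, SLC25A16 and SLC25A22 were not called on that scale.

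**Figure D1:**
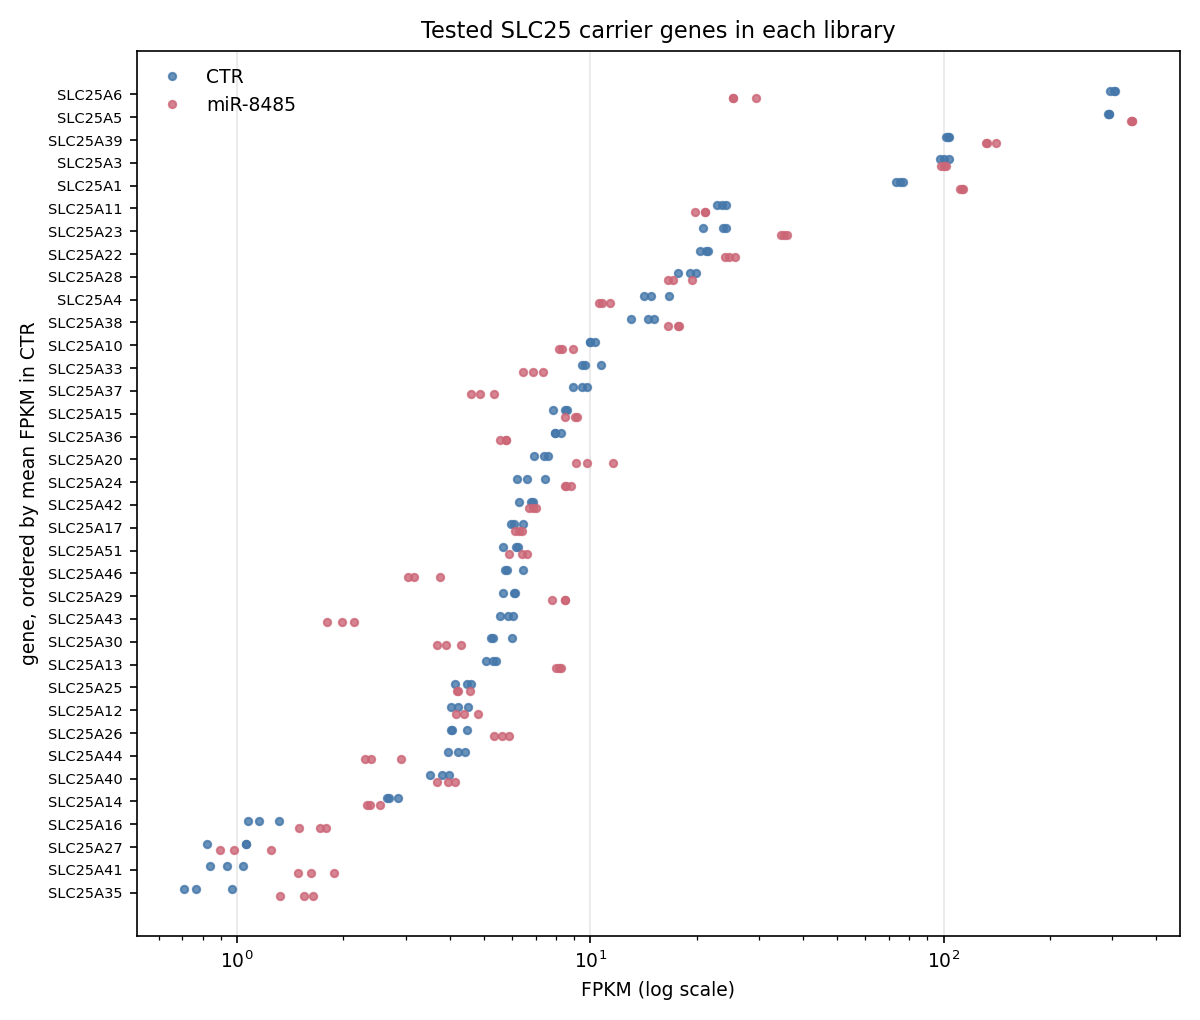
Level of 36 tested members in each of the 6 libraries (FPKM, log axis), one row per gene, ordered by the CTR mean, with CTR in blue and miR-8485 in red. SLC25A6 leaves the top of the order, from 301 to 26.7 FPKM, while SLC25A5 and SLC25A39 move to the right and SLC25A3 stays within the CTR range of 97.9 to 103 FPKM in all 3 miR-8485 libraries.

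The ADP/ATP carriers held the largest part of the family's summed FPKM in CTR, and SLC25A6 had the largest change of the 37 tested members. SLC25A6 (ENSG00000169100), in the region that the X and Y chromosomes share, was at 304, 305 and 295 FPKM in the 3 CTR libraries and at 29.4, 25.3 and 25.4 FPKM in the 3 miR-8485 libraries. Every miR-8485 library was far below every CTR library. The log2 fold change was -3.50 (standard error 0.06, 95% interval -3.64 to -3.35, limma adjusted p = 4.1e-07), which is 11.3-fold lower on the log2(FPKM + 0.1) scale. It was measured from 11562 to 11940 fragments in each CTR library and from 990 to 1143 in each miR-8485 library. SLC25A6 was the first of the 48 members by FPKM in CTR and the sixth in miR-8485.

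SLC25A5 (ENSG00000005022) was nearly level with SLC25A6 in CTR, at 291, 294 and 294 FPKM, and was at 341, 339.5 and 342 FPKM in miR-8485. The groups did not overlap, and the rise of 0.22 on the log2 scale passed the test (limma adjusted p = 0.0013). It is small and depends on the scaling, with a log2 fold change of 0.10 after rescaling to TPM (limma adjusted p = 0.0963) and of 0.024 once the trend of fold change against gene length was removed (limma adjusted p = 0.662). SLC25A4 (ENSG00000151729) was the least abundant of the 3, at 16.7, 14.8 and 14.2 FPKM in CTR and 11.4, 10.8 and 10.6 FPKM in miR-8485. All 3 miR-8485 libraries were below CTR, and SLC25A4 fell by 0.48 on the log2 scale (limma adjusted p = 0.00084). SLC25A31 had at most 2 fragments in any library and was listed at 0.0603, 0.0601 and 0 FPKM in CTR and at 0 in all miR-8485 libraries, which is too few for a comparison.

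The shares within each library do not depend on how libraries are scaled against each other. They do depend on the listed gene lengths, 2164 bases for SLC25A6 and 1500 for SLC25A5. SLC25A6 made up 49.7%, 49.7% and 48.9% of the summed FPKM of the ADP/ATP carriers in CTR and 7.71%, 6.73% and 6.71% in miR-8485, or 49.4% ± 0.431 and 7.05% ± 0.567 (SD, n = 3). SLC25A5 went from 48.0% ± 0.579 to 90.1% ± 0.65 (SD, n = 3). SLC25A4 stayed a minor part, at 2.50% ± 0.204 in CTR and 2.89% ± 0.0914 in miR-8485 (SD, n = 3). A pair of carriers that were about equal in FPKM in CTR thus became unequal. The log2 ratio of SLC25A6 to SLC25A5 was 0.041 ± 0.030 in CTR and -3.68 ± 0.12 in miR-8485 (SD, n = 3).

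With the FPKM as deposited, the rise of SLC25A5 was smaller than the fall of SLC25A6. The ADP/ATP carriers summed to 612, 613 and 603 FPKM in CTR and to 382, 376 and 378 FPKM in miR-8485, a change of -37.9%. They held 53.9% ± 0.246 of the summed FPKM of all 48 members in CTR and 38.7% ± 0.275 in miR-8485 (SD, n = 3). The sum over all members went from 1131 ± 5.91 to 978 ± 13.2 FPKM, and without SLC25A6 it went the other way, from 830 ± 1.65 to 951 ± 10.9 FPKM (SD, n = 3). For each of these measures the groups did not overlap, and the two-sided exact permutation test gave p = 0.1, the smallest that 3 libraries against 3 can give, also after adjustment over the 10 shares, ratios and sums computed.

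**Figure D2:**
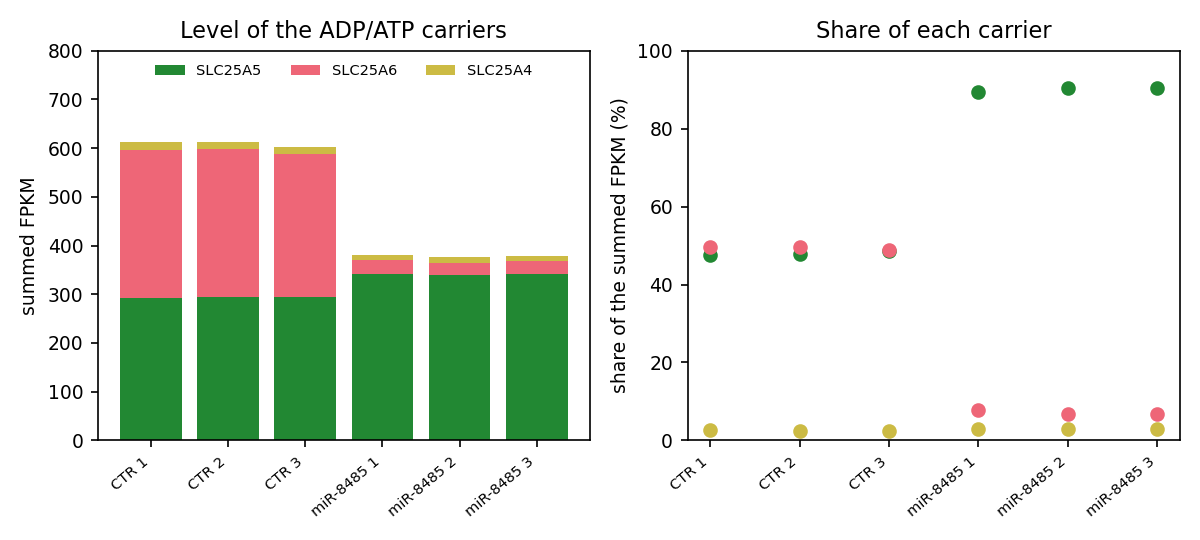
Summed FPKM of SLC25A4, SLC25A5 and SLC25A6 as stacked bars (left) and the share of each in their sum in percent (right), for the 3 CTR and the 3 miR-8485 libraries. The SLC25A6 part shrinks from 48.9% or more in every CTR library to 7.71% or less in every miR-8485 library, and the total falls from at least 603 FPKM to at most 382 FPKM.

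The 3 carriers are alike enough that fragments could in principle be assigned to the wrong one. Their coding sequences, each of 897 bases, are 77.3% identical between SLC25A4 and SLC25A5, 77.9% between SLC25A4 and SLC25A6 and 78.8% between SLC25A5 and SLC25A6, and the longest run shared without a mismatch is 29 bases, between SLC25A5 and SLC25A6. Their pseudogenes took almost no fragments. Of the 40 pseudogene rows named after a member, 30 were at 0 in every library, and none had more than 12 fragments in a library. SLC25A5P5 had 0, 3 and 7 fragments in CTR and 8, 4 and 3 in miR-8485, and SLC25A6P4 had none in CTR and 1, 2 and 1 in miR-8485. Of the other SLC25A5 copies, SLC25A5P2 and SLC25A5P8 had 2 and 4 fragments in 1 CTR library each. SLC25A1P1 had 6, 5 and 12 fragments in CTR and 4, 3 and 5 in miR-8485, and SLC25A1P5 and SLC25A39P1 had at most 3 in any library. The antisense gene SLC25A5-AS1 had 11, 20 and 2 fragments in CTR and 36, 15 and 29 in miR-8485, against at least 7882 for SLC25A5. Adding the pseudogene fragments left the difference of the SLC25A6 share at -42.4 percentage points, the same as without them. They were too few to have moved it. Assignment of fragments among the 3 carriers was not tested by this, and the multimapping settings were not given in the sources used here.

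The nucleotide, coenzyme and vitamin carriers moved in both directions, with 4 of 11 tested members having risen and 2 having fallen. Of all tested genes, 29.1% rose and 30.5% fell. SLC25A23 and SLC25A41 encode carriers that exchange ATP-Mg for phosphate. SLC25A23 was at 20.8, 23.8 and 24.3 FPKM in CTR and 34.6, 35.3 and 36.0 FPKM in miR-8485, and rose by 0.62 on the log2 scale (standard error 0.06, limma adjusted p = 0.00015). SLC25A41, its neighbour on chromosome 19, was near the filter, at 1.04, 0.838 and 0.938 FPKM in CTR and 1.49, 1.88 and 1.62 FPKM in miR-8485, which are 25 to 31 and 44 to 56 fragments. It rose by 0.76 on the log2 scale (standard error 0.17, limma adjusted p = 0.0055), and no miR-8485 library reached down to CTR for either gene.

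SLC25A24, another ATP-Mg/phosphate carrier, rose by 0.35 on the log2 scale (limma adjusted p = 0.0044), while SLC25A25 of the same group had a log2 fold change of -0.023 (95% interval -0.19 to 0.14). SLC25A33 and SLC25A36, which encode pyrimidine nucleotide carriers, were the members of this class that fell. SLC25A33 was at 9.45, 9.68 and 10.7 FPKM in CTR and 7.34, 6.46 and 6.89 FPKM in miR-8485, and its log2 fold change was -0.52 (standard error 0.07, limma adjusted p = 0.00058). SLC25A36 went from 8.05 ± 0.174 to 5.71 ± 0.131 FPKM (SD, n = 3), and its log2 fold change was -0.49. SLC25A16 rose by 0.47 (limma adjusted p = 0.0264), a call that was also lost in the fit of all genes above 0 (limma adjusted p = 0.0522) and when CTR replicate 2 or 3 or miR-8485 replicate 1 or 3 was left out (limma adjusted p = 0.0614, 0.0709, 0.0902 and 0.0788). SLC25A51, the mitochondrial NAD carrier, had a log2 fold change of 0.064 (95% interval -0.094 to 0.22), and SLC25A42 and SLC25A17 were not called either.

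Among the carriers of phosphate, citrate, keto acids and dicarboxylates, 1 of 7 tested members rose and 3 fell, beside 29.1% and 30.5% of all tested genes. SLC25A1, the citrate carrier that supplies the cytosol with citrate for fatty acid and sterol synthesis, was the riser. It was at 75.3, 76.6 and 73.2 FPKM in CTR and 114, 111 and 113 FPKM in miR-8485, with no overlap, and rose by 0.58 on the log2 scale (standard error 0.04, limma adjusted p = 1.9e-05). SLC25A3, the phosphate carrier that supplies ATP synthase, was among the 5 most abundant members and was at 103, 97.9 and 100.4 FPKM in CTR and 100.2, 102 and 98.4 FPKM in miR-8485. The groups overlapped, and the 95% interval of its log2 fold change, -0.098 to 0.089, leaves room for little change in either direction. SLC25A11 (oxoglutarate carrier) fell by 0.19, SLC25A10 (dicarboxylate carrier) fell by 0.25 and SLC25A30 fell by 0.47 on the log2 scale (limma adjusted p = 0.012, 0.0054 and 0.0022). SLC25A14 had groups that did not overlap, with a log2 fold change of -0.18 and a limma adjusted p of 0.0966, and SLC25A27, at about 1 FPKM, had an interval of -0.43 to 0.57.

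Of the amino acid, carnitine and glutathione carriers, 7 of 11 tested members rose and 1 fell, beside 29.1% and 30.5% of all tested genes. The class as a set was not tested. SLC25A39, which is required for glutathione import into mitochondria, was the third of the members by FPKM in CTR. It was at 104, 102 and 103 FPKM in CTR and 140.4, 131 and 133 FPKM in miR-8485. The groups did not overlap, and it rose by 0.39 on the log2 scale (standard error 0.04, limma adjusted p = 0.00016). Its paralog SLC25A40 had a log2 fold change of 0.056 (95% interval -0.13 to 0.24). SLC25A13 and SLC25A12 encode the aspartate/glutamate carriers of the malate-aspartate shuttle. SLC25A13 was at 5.43, 5.32 and 5.08 FPKM in CTR and 8.28, 7.99 and 8.14 FPKM in miR-8485, and rose by 0.62 on the log2 scale (standard error 0.05, limma adjusted p = 5.9e-05). SLC25A12 had a log2 fold change of 0.063 (95% interval -0.12 to 0.25). The share of SLC25A13 in the sum of the pair was 55.3% ± 2.25 in CTR and 64.6% ± 1.29 in miR-8485 (SD, n = 3, two-sided exact permutation p = 0.1, the smallest possible). This pair, and that of the iron carriers below, were chosen after their values had been seen.

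SLC25A20 (carnitine/acylcarnitine carrier) rose by 0.47, SLC25A29 (basic amino acids) by 0.46, SLC25A26 (S-adenosylmethionine) by 0.41, SLC25A38 (glycine, for heme synthesis) by 0.28 and SLC25A22 (glutamate) by 0.24 on the log2 scale, with limma adjusted p between 0.00049 and 0.0084. The SLC25A22 call was lost after rescaling to TPM, with a log2 fold change of 0.12 (limma adjusted p = 0.0637). SLC25A44, which is linked to the uptake of branched-chain amino acids, was the member of this class that fell. It was at 4.41, 3.96 and 4.21 FPKM in CTR and 2.92, 2.39 and 2.31 FPKM in miR-8485, and its log2 fold change was -0.71 (standard error 0.10, limma adjusted p = 0.00078), with all miR-8485 libraries below CTR. SLC25A15, the ornithine carrier, was not called.

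The iron carriers of the family are SLC25A37 (mitoferrin-1), best known from red cell precursors, and its relative SLC25A28 (mitoferrin-2). SLC25A37 was at 9.46, 8.95 and 9.79 FPKM in CTR and 4.89, 5.33 and 4.61 FPKM in miR-8485. All miR-8485 libraries were below all CTR libraries, and it fell by 0.92 on the log2 scale (standard error 0.07, limma adjusted p = 3.6e-05). SLC25A28 was the higher of the pair in FPKM in all 6 libraries, with 564 to 634 fragments in CTR and 527 to 613 in miR-8485. SLC25A37 had more fragments, 1319 to 1444 in CTR and 715 to 786 in miR-8485. The order in FPKM, and the share of the pair given below, depend on the listed gene lengths. These are 1755 bases for SLC25A28 and 8147 for SLC25A37. The log2 fold change of SLC25A28, -0.096, was not called with the FPKM as deposited (limma adjusted p = 0.290). It was called after rescaling to TPM, at -0.21 (limma adjusted p = 0.0336). The SLC25A37 share of the pair went from 33.2% ± 2.30 to 21.8% ± 2.21 (SD, n = 3, two-sided exact permutation p = 0.1, the smallest possible).

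Of the 8 members that act on membrane dynamics or have no settled substrate, 3 were tested. SLC25A43 (ENSG00000077713), whose substrate is not settled, had the second largest fall of the family. It was at 5.84, 6.03 and 5.55 FPKM in CTR and 2.14, 1.99 and 1.80 FPKM in miR-8485, or 313 to 340 and 107 to 120 fragments. The log2 fold change was -1.51 (standard error 0.08, 95% interval -1.71 to -1.31, limma adjusted p = 9.9e-06). SLC25A43 and SLC25A5 lie close together on the X chromosome and moved in opposite directions with the FPKM as deposited. SLC25A46, an outer membrane protein that takes part in mitochondrial fission and fusion, was at 5.74, 6.43 and 5.82 FPKM in CTR and 3.17, 3.76 and 3.06 FPKM in miR-8485. It fell by 0.83 on the log2 scale (standard error 0.09, limma adjusted p = 0.00021), again without overlap.

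SLC25A35, the third tested member of this class, was at 0.968, 0.766 and 0.709 FPKM in CTR and 1.54, 1.32 and 1.64 FPKM in miR-8485, and rose by 0.81 on the log2 scale (standard error 0.19, limma adjusted p = 0.0078). It shares 1596 bases with RANGRF on the opposite strand, and without knowing whether the counting used strand, fragments in the overlap of the 2 genes cannot be told apart. The same holds for SLC25A12, whose gene overlaps HAT1 and METAP1D on the opposite strand, and for SLC25A25, which overlaps SLC25A25-AS1. Of the members described above, SLC25A11 likewise shares 244 bases with RNF167, which had up to 1958 fragments in a library and a log2 fold change of -0.20 (limma adjusted p = 0.0389). SLC25A40 shares 142 bases with DBF4, at -0.66, SLC25A23 shares 1427 bases with CRB3, at -0.0027, and SLC25A26 shares 9320 bases with LRIG1, at -0.24 (limma adjusted p = 0.328), each on the opposite strand. On the same strand, SLC25A10 shares 8304 bases with the protein-coding gene AC139530.2, which had 0 fragments in every library. SLC25A51 likewise shares 24954 bases with AL138752.2, which had at most 6 fragments in a library. Strand would not separate fragments in these 2 overlaps. The part of all these overlaps in the members' values was not tested. SLC25A25-AS1 had 186, 154 and 209 fragments in CTR and 137, 101 and 120 in miR-8485, against at least 369 for SLC25A25. SLC25A27, SLC25A35 and SLC25A41 passed the filter with 1 group below a mean of 1 FPKM.

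**Figure D3:**
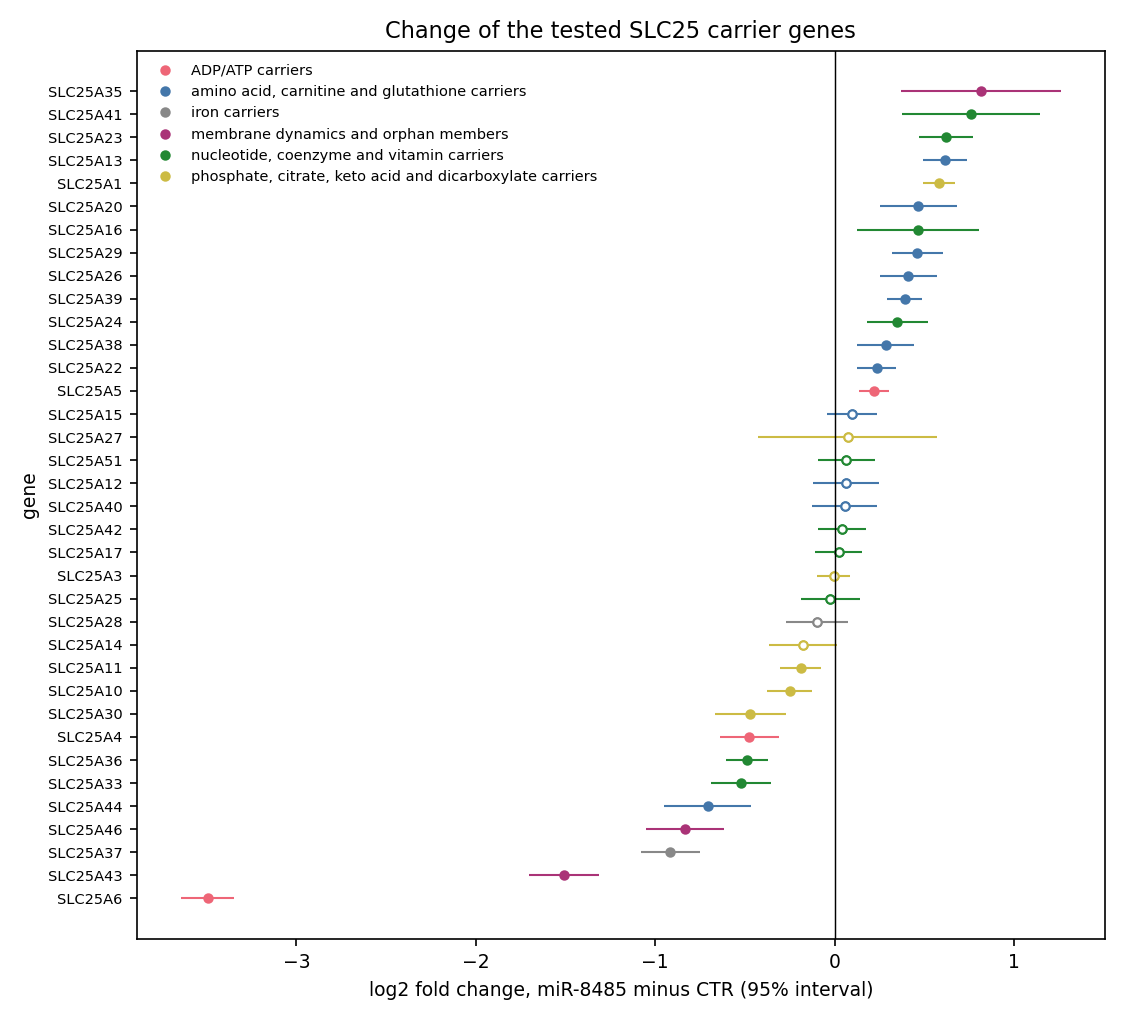
Log2 fold change (miR-8485 minus CTR, limma on log2(FPKM + 0.1)) of 36 tested members with 95% intervals, ordered by value and coloured by role, with filled points for members called at an adjusted p under 0.05 and open points for the rest. SLC25A6 at -3.50 and SLC25A43 at -1.51 stand at the low end, 14 members are called on the right and 11 are open around 0.

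The other 11 members were below a mean of 1 FPKM and none was called in the fit of all 31768 genes above 0, in which 22.1% of genes were called. SLC25A2 was at 0 in every library. It overlaps TAF7, which had up to 1552 fragments in a library, over 1417 bases on its own strand. Of the 11, SLC25A45 was the highest, at 70 to 90 fragments in CTR and 112 to 157 in miR-8485, without overlap. It had a log2 fold change of 0.65 with a limma adjusted p of 0.0758. SLC25A48, SLC25A21 and SLC25A18 had between 20 and 94 fragments in every library. SLC25A34, SLC25A32, SLC25A53, SLC25A31, SLC25A52 and SLC25A47 had 23 or fewer. SLC25A32, a carrier of folate and flavin, overlaps a protein-coding readthrough gene on its own strand over 16532 bases and DCAF13 on the opposite strand. How the counting treated fragments in such overlaps was not given in the sources used here.

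Members with a large change in either direction differed in how much their 3′ UTR resembles the mimic or its complement. The longest annotated 3′ UTR of each gene was searched on the transcribed strand for TGTGTGT, the 7 bases complementary to the seed, with overlapping copies counted. Of the 37 tested members, 14 held at least 1 copy, against 30.2% of the 10666 tested genes with a 3′ UTR, and of these 14 members 5 rose and 5 fell. Of the 23 members with no copy, 9 rose and 6 fell. Across all tested genes, 44.1% of those with a copy and 29.2% of those without fell. Of the 3221 tested genes with a copy 645 rose, and of the 7445 without 2378 rose.

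The 4 members with at least 5 copies were SLC25A44 with 21, SLC25A22 with 8, SLC25A37 with 6 and SLC25A46 with 5. Of these, SLC25A44, SLC25A37 and SLC25A46 fell by 0.71, 0.92 and 0.83 on the log2 scale, and SLC25A22, which holds the 11-base stretch shown above, rose by 0.24. Of all 537 tested genes with at least 5 copies, 320 fell (59.6%) and 64 rose, and the median log2 fold change was -0.36. Their 3′ UTRs were longer, with a median of 3813 bases against 1034 for genes with no copy, so copies and length move together and were not separated here. SLC25A36 and SLC25A12 held 4 copies each, with log2 fold changes of -0.49 and 0.063, and SLC25A23 held 2 and rose.

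SLC25A6 and SLC25A43, the members with the deepest falls, held no copy of the seed site. SLC25A6 has a short 3′ UTR of 450 bases, and the 30-base stretch shown above, which starts at its base 9, holds the 13-base run with the same letters as the mimic. SLC25A43 shares a run of 9 bases with the mimic in the same sense, as do SLC25A23, which rose, and SLC25A37 and SLC25A44, which fell. No other tested member shares more than 7. A run of at least 13 of the mimic's own letters was present in 230 tested genes, or 2.16% of those with a 3′ UTR. Of these, 160 fell (69.6%) and 19 rose, with a median log2 fold change of -0.77, whereas 32.9% of genes with shorter runs fell. The 230 genes also had longer 3′ UTRs, with a median of 3768.5 bases against 1426 for genes with shorter runs. Runs and length were not separated here, and SLC25A6, at 450 bases, is unlike the group in length. The cut of 13 bases equals the run of SLC25A6 itself, and no other cut was used here. SLC25A6 was the 1 member among the 230 genes, so this is a description of a single gene beside a group. The part of these letters in its fall was not tested.

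**Figure D4:**
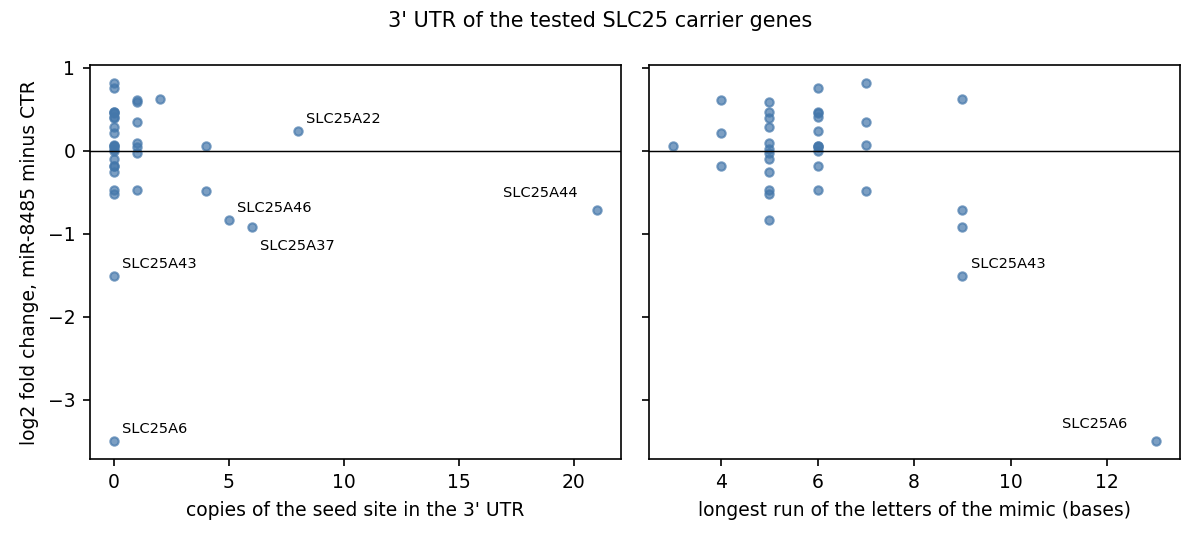
Log2 fold change (miR-8485 minus CTR) of 36 tested members against the copies of TGTGTGT in the 3′ UTR (left) and against the longest run, in bases, of the mimic's own letters (right), one point per gene. SLC25A44 with 21 copies lies at -0.71 and SLC25A22 with 8 at 0.24, and SLC25A6 at -3.50 has no copy of the seed site but the longest run of the mimic's letters, 13 bases.

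Genes that work beside the carriers are given for comparison. Their counts stand beside 29.1% of all tested genes having risen and 30.5% having fallen, and no list was tested as a set. Of 5 carrier-fold proteins with other names, 3 were tested and 1 rose. This was MTCH2, an outer membrane insertase, with a log2 fold change of 0.22 (limma adjusted p = 0.0019), a call lost after rescaling to TPM. MTCH1 and the uncoupling protein UCP2 were not called, UCP1 was listed at 0 in every library and UCP3 was below 1 FPKM. Of the machinery that imports carriers, 14 of 16 genes were tested, 6 rose and 4 fell, with a median log2 fold change of 0.15. The largest changes were those of TIMM8B, a small chaperone of the intermembrane space, with 0.89, and of the import receptors TOMM20 with 0.64 and TOMM22 with 0.53.

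Of 22 other transporters of the mitochondrial membranes, 21 were tested, 6 rose and 10 fell, with a median of -0.23. Here too, 29.1% of all tested genes rose and 30.5% fell. SMDT1, a regulatory subunit of the calcium uniporter, had a log2 fold change of 0.88, and MCU, its pore, one of -0.78. SFXN4, a sideroflexin, had 0.83. Of 18 subunits and regulators of ATP synthase, which supplies the ATP that the ADP/ATP carriers export, all were tested, 12 rose and 1 fell, with a median of 0.26. The inhibitory factor ATP5IF1 had a log2 fold change of 0.64, ATP5F1E of 0.62 and ATP5MC2 of 0.50, and the gene that fell was ATP5MC1, at -0.44. After rescaling to TPM 7 of the 18 rose, and 9 rose in the fit of all genes above 0 and without a variance trend. With 1 library left out, 9 to 14 rose.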

How the data were processed

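RNA was from 3 CTR and 3 miR-8485 libraries of HCT116, called independent biological replicates in the methods of the study. Per the labels and the methods of the study, the authors made libraries with a VAHTS kit, trimmed reads with fastp 0.23.1, mapped them to hg38 with HISAT2 2.0.5, counted them with featureCounts 1.5.0-p3 and deposited FPKM. The strand and multimapping settings, and the annotation release, were not given in the sources used here. All FPKM values above 0 equalled whole fragments within a tolerance of 0.05, so fragments were recovered. The chi-square per gene was 2.75 to 10.5 within groups and 61.0 to 70.3 between them, and each library counted separately. CTR replicate 1 gave the highest values within groups, 10.5 and 8.46 against CTR replicates 2 and 3. The other pairs within groups were at 2.75 to 3.87.

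Genes with a mean of at least 1 FPKM were tested with limma 3.58.1 in R 4.3.3 (variance trend, log2(FPKM + 0.1), two-sided, Benjamini-Hochberg), after the script was tested on simulated data. Fold changes on this scale understate changes of low genes. Members below 1 FPKM came from the fit of all genes above 0. Permutation tests used scipy 1.17.1 in Python 3.11.15, tables pandas 2.3.3 and plots matplotlib 3.10.9. 3′ UTRs came from GENCODE release 44 on hg38, and the mimic's sequence from the study's supplementary methods. Every member could be named, but the values of 1 member are not reported here. Values per library were given for the ADP/ATP carriers, for members called with a change of at least 0.5 on the log2 scale and for the 5 highest in CTR, and of each list the 3 called genes with the largest change were named, other list genes after their values were seen. Members and lists were chosen with earlier results of these data known. Alternatives were other pseudocounts, filters and scalings, voom on recovered fragments, a replicate block and each library left out. Groups of 3 were not screened for outliers.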

Additional observations from a re-analysis of the deposited data

How the results depend on the processing

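SLC25A6, SLC25A43, SLC25A37, SLC25A46, SLC25A44, SLC25A33, SLC25A1, SLC25A13, SLC25A23, SLC25A35 and SLC25A41 kept their direction and their call in every alternative in which they were tested, with log2 fold changes of -3.61 to -3.45 for SLC25A6 and -1.62 to -1.19 for SLC25A43. Testing only genes with a mean of at least 5 FPKM left 6878 genes and 24 members, so counts fell to 2303 genes risen and 2417 fallen and to 7 members fallen. The median log2 fold change of the members was 0.041 with a pseudocount of 1, 0.087 after quantile normalization, 0.038 with the length trend removed and -0.056 after rescaling to TPM, and 0.017 to 0.059 with 1 library left out. Rescaling to TPM left 0 of the carrier-fold proteins with other names and 7 ATP synthase genes risen. The count of import genes fallen was 2 in the fit of all genes above 0, after quantile normalization and without a variance trend, and 2 to 3 with 1 library left out. Members that were not called changed sign as follows. After rescaling to TPM, SLC25A15 was at -0.017, SLC25A42 at -0.070, SLC25A17 at -0.090, SLC25A51 at -0.049, SLC25A12 at -0.050, SLC25A40 at -0.056 and SLC25A27 at -0.033. With the length trend removed, SLC25A3 was at 0.10, SLC25A15 at -0.056 and SLC25A25 at 0.0080. After quantile normalization, SLC25A25 was at 0.017 and SLC25A27 at -0.039, and with voom SLC25A3 was at 0.0060. With 1 library left out, the values ran from -0.024 to 0.015 for SLC25A3, -0.00075 to 0.058 for SLC25A17, -0.067 to 0.0081 for SLC25A25 and -0.052 to 0.17 for SLC25A27. Calls were gained for SLC25A14 after rescaling to TPM, with the length trend removed and without a variance trend (limma adjusted p = 0.0282, 0.0454 and 0.0391) and for SLC25A28 with the length trend removed (limma adjusted p = 0.0106). Other than where construction shows it, the cause was not tested. Libraries of the same number did not deviate together (correlations of 0.067, 0.033 and -0.064). Whether they were handled as pairs was not given in the sources used here. With the replicate number as a block, 14 members rose and 11 fell, 3634 genes rose and 3754 fell, and the SLC25A6 share differed by -42.4 percentage points. Limits are few fragments for members near or below 1 FPKM, and 3 libraries a group, for which no exact p can go below 0.1. FPKM are relative to the library total, so RNA per cell was not measured.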
